A study of Mus musculus with 20 samples.

Results

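Libraries of 5 cutaneous squamous cell carcinomas (cSCC) of mice were compared with 5 of healthy skin by small RNA sequencing, over all features of the deposited table. The 10 libraries are 10 of the 20 of the study and were chosen by their source labels. The cSCC libraries, numbered 1, 2, 3, 4 and 6, came from biopsies of skin treated with DMBA, a mutagen that starts tumours, and PMA, a phorbol ester that promotes them. The healthy libraries, numbered 2, 3, 4, 5 and 7, came from skin treated with acetone. Mice of every group had the inbred FVB/N background, and the labels name no engineered allele, age or dose. The other 10 libraries are 5 papillomas, which are benign tumours, and 5 hyperplastic skins, all DMBA/PMA-treated. Between cSCC and healthy skin, treatment and lesion change together and cannot be told apart. Whether each biopsy is from a separate mouse is not stated in the labels, and p-values therefore reflect only how these libraries vary, which may be technical. Values per library are listed in the order of the library numbers above.

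miRNAs are short RNAs cut from hairpin precursors by the nucleases Drosha and Dicer. Each hairpin has a 5p and a 3p arm, and a mature arm loaded into an Argonaute protein lowers the output of messenger RNAs that pair with its seed, the stretch near its 5′ end. In epidermis, miR-203 and miR-205 are among the most abundant miRNAs, and miR-21 and miR-31 are known for their rise in squamous tumours. A skin biopsy also holds muscle, vessels, fibroblasts, nerves, melanocytes and immune cells, each with miRNAs of its own.

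The mature sequences of the miRNAs with the largest changes are shown first, because the seed decides which messages a miRNA pairs with. They are from the RefSeq annotation of GRCm38.p6, written 5′ to 3′, with the seed (bases 2 to 8) in capitals. Of the 293 miRNAs tested, 241 had an entry. Among the largest rises, these had one:
miR-31-3p: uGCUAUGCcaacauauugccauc
miR-31-5p: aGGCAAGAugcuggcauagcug
miR-21-5p: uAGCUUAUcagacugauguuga
miR-210-5p: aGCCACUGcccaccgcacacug
miR-7a-5p: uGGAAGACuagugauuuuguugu
miR-21-3p: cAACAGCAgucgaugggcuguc
miR-1192: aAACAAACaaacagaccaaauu

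miR-135b-5p, miR-147-3p, miR-5109, miR-5115 and miR-5102 belong to the same set and are named only. Among the largest falls, these had an entry:
miR-133b-3p: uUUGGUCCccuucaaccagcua
miR-204-5p: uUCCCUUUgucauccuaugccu
miR-1a-1-5p: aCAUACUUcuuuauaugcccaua
miR-101c: aCAGUACUgugauaacuga
miR-676-3p: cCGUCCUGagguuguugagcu
miR-193b-3p: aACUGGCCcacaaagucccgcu
miR-338-3p: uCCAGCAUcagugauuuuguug
miR-181c-5p: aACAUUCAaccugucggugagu

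miR-133a-3p, miR-133a-5p, miR-1a-3p and miR-1a-2-5p also belong to the 12 largest falls and are named only. The next fall in size, miR-101a-3p, is shown beside them for its likeness to miR-101c:
miR-101a-3p: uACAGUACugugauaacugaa

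The sequence of miR-101c is contained in that of miR-101a-3p, as its bases 2 to 20, so reads of the pair cannot be told apart by sequence over that stretch. No seed is shared between the rises and the falls shown. A set of miRNAs with 1 seed, of which some were called higher and others lower, is shown for contrast:
miR-15b-5p: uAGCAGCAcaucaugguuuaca
miR-322-5p: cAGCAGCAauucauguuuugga
miR-15a-5p: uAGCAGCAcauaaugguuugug
miR-16-5p: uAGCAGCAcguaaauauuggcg
miR-195-5p: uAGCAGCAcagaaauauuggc
miR-497-5p: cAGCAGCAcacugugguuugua

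The table holds 2127 features, of which 1137 are mature miRNAs. The cSCC libraries had total counts of 2028162 to 3915431 and mature miRNA counts of 1614803 to 2903657. The healthy libraries had totals of 4753061 to 7395047, each above every carcinoma, and mature miRNA counts of 2884177 to 4921719, of which the lowest lay below the highest carcinoma. The rarest miRNAs did not follow the depth: 590 miRNAs that averaged 20 counts or fewer gave 3598 to 5602 counts per cSCC library and 3293 to 4228 counts per healthy library. miRNAs were therefore tested from a mean of 50 CPM (counts per 1000000 mature miRNA counts) across the 20 libraries, and scaled between libraries by TMM factors over these 293 miRNAs. The factors were 0.721 to 0.961 in cSCC and 0.909 to 1.15 in healthy skin. Keratinocyte miRNAs were abundant in every library: miR-203 and miR-205 together made up 79160 to 174700 CPM in cSCC libraries and 119000 to 169000 CPM in healthy libraries. The ranges overlap, so they cannot tell cSCC from healthy skin.

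Fold changes are given as log2 changes of cSCC over healthy skin, with their standard errors. Most tested miRNAs differed between cSCC and healthy skin. By edgeR's quasi-likelihood test, 183 of 293 (62.5%) had a Benjamini-Hochberg adjusted p below 0.05. Of these, 107 were higher in cSCC (36.5% of those tested) and 76 lower (25.9%). Counts called within the lists below are to be read against these shares. All 5 cSCC libraries lay on one side of all 5 healthy libraries for 106 miRNAs (36.2%). The split into higher and lower rests on the scaling. It was 95 higher and 92 lower with DESeq2 size factors, 89 and 93 with library sizes that leave out the 5 most abundant miRNAs, and 72 and 112 with the plain miRNA total. These scalings moved the fold changes by a median of -0.11, -0.14 and -0.37 (log2). The median log2 fold change of all 293 was 0.14. It was positive among miRNAs of 50 to 100 CPM (0.39), 100 to 300 CPM (0.63) and 300 to 1000 CPM (0.32), and negative among those of 1000 to 10000 CPM (-0.34) and above 10000 CPM (-0.35). Filters that let in rarer miRNAs moved the fold changes further. The median shift was -0.71 with edgeR's looser filterByExpr filter, -0.38 at a minimum of 10 CPM and -0.995 with no filter. Many calls that these filters ended, though not all, are given beside the results. Because the minimum was a mean over all 20 libraries, 31 tested miRNAs averaged below 50 CPM in healthy skin, 27 of them called higher, and 12 averaged below it in cSCC, 11 of them called lower. In tissue libraries such as these, fewer cells of a type and less RNA per cell cannot be told apart.

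**Figure D1:**
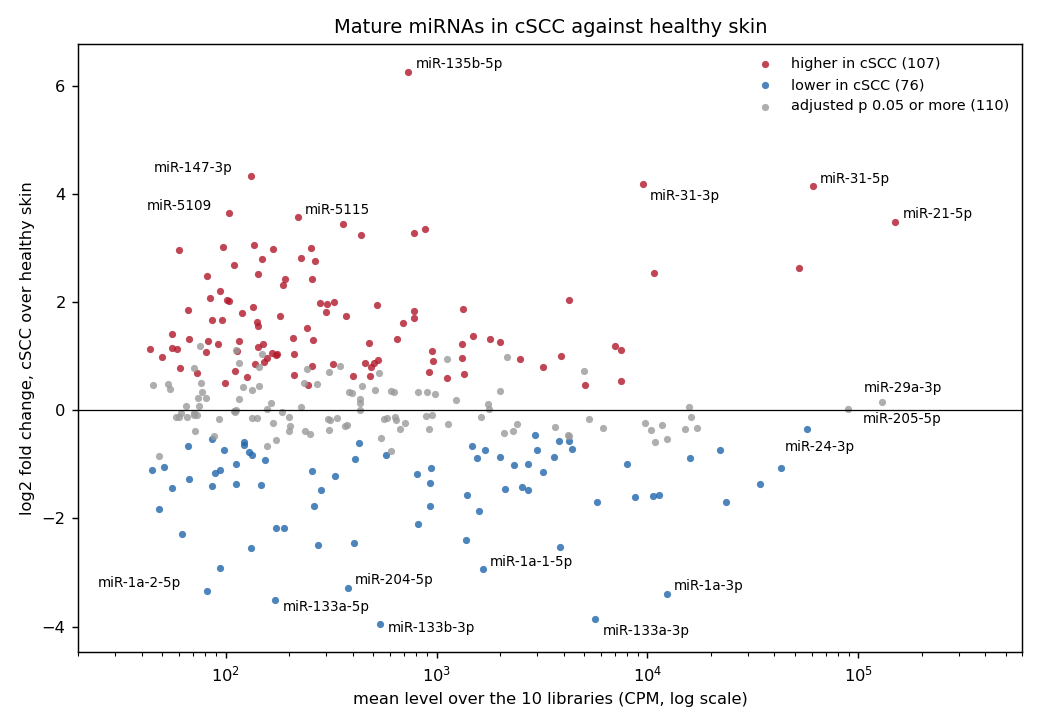
Log2 fold change of each of the 293 tested miRNAs, cSCC over healthy skin, against its mean level over the 10 libraries (CPM, log scale). Red points are the 107 miRNAs higher in cSCC, blue points the 76 lower and grey points the other 110; miR-135b-5p stands highest at 6.27, and miR-21-5p and miR-31-5p combine a high level with a rise above 3.

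The largest rise was that of miR-135b-5p, a miRNA known for its rise in colorectal and other carcinomas, which lies at chr1:134094679-134094703 (mm9). It stood at 1755, 1085, 529, 3421 and 463 CPM in the cSCC libraries and at 16.8, 18.5, 11.8, 27.3 and 19.4 CPM in the healthy libraries. Each carcinoma exceeded the highest healthy value many times over, and cSCC 4 was the highest. The rise was far outside the spread of either group (log2 change 6.27 ± 0.72, edgeR adjusted p = 5.01e-07), and the log2 change was 5.64 without cSCC 4. miR-31 rose in both arms. The arm known for promoting keratinocyte growth, miR-31-5p at chr4:88556517-88556540, reached 153600, 89370, 111000, 170900 and 50250 CPM in cSCC and 5621, 4782, 11750, 7334 and 2972 CPM in healthy skin, without overlap (log2 change 4.15 ± 0.65, edgeR adjusted p = 1.82e-05). Its partner miR-31-3p had 18810, 20290, 14520, 24840 and 11390 CPM in cSCC and 807, 709, 2490, 656 and 265 CPM in healthy skin (log2 change 4.19 ± 0.55, edgeR adjusted p = 2.02e-06). Healthy 4 held the highest value of both arms among healthy libraries and still lay below every carcinoma.

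miR-21-5p, known for lowering Pdcd4, an inhibitor of translation, was the most abundant miRNA of the 10 libraries. At chr11:86397621-86397644, it had 260300, 280200, 311900, 320500 and 200700 CPM in cSCC and 24490, 40680, 27030, 19040 and 11190 CPM in healthy skin. Every carcinoma lay above every healthy library (log2 change 3.49 ± 0.38, edgeR adjusted p = 2.82e-07). The scarcer arm miR-21-3p moved by a like amount, with 791, 848, 685, 1071 and 578 CPM in cSCC and 89.4, 124.9, 79.5, 82.9 and 43.5 CPM in healthy skin (log2 change 3.24 ± 0.28, edgeR adjusted p = 2.63e-08). miR-210, which the hypoxia factor HIF-1 induces, rose in both arms. miR-210-3p, the more abundant one, had 13230, 23030, 13800, 35230 and 6475 CPM in cSCC and 3083, 3162, 2288, 4491 and 2742 CPM in healthy skin (log2 change 2.54 ± 0.43, edgeR adjusted p = 3.69e-05), and miR-210-5p ran at 436 to 2867 CPM in cSCC and 64.9 to 235 CPM in healthy skin (log2 change 3.36 ± 0.47, edgeR adjusted p = 4.95e-06). Neither arm overlapped between the groups, and cSCC 6 was the lowest carcinoma for both.

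The remaining large rises were of scarcer miRNAs. miR-147-3p, induced in mouse macrophages through Toll-like receptors, had 152, 419, 156, 221.5 and 308 CPM in cSCC and 23.9, 10.7, 11.8, 11.4 and 3.62 CPM in healthy skin (log2 change 4.34 ± 0.54, edgeR adjusted p = 1.16e-06). miR-7a-5p, whose human counterpart targets the EGF receptor, had 419, 4008, 865, 1294 and 477 CPM in cSCC and 115, 214, 201, 127 and 70.1 CPM in healthy skin (log2 change 3.28 ± 0.50, edgeR adjusted p = 1.31e-05). cSCC 2 stood far above the other carcinomas for miR-7a-5p, and the fold change was 2.39 without it. miR-5109 (3.65 ± 0.62), miR-5115 (3.57 ± 0.72), miR-5102 (3.45 ± 0.56) and miR-1192 (3.06 ± 0.43) rose on the log2 scale, each without overlap between the groups. The value of miR-5102 was 2.71 without cSCC 2, and that of miR-5115 was 4.24 without healthy 5.

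**Figure D2:**
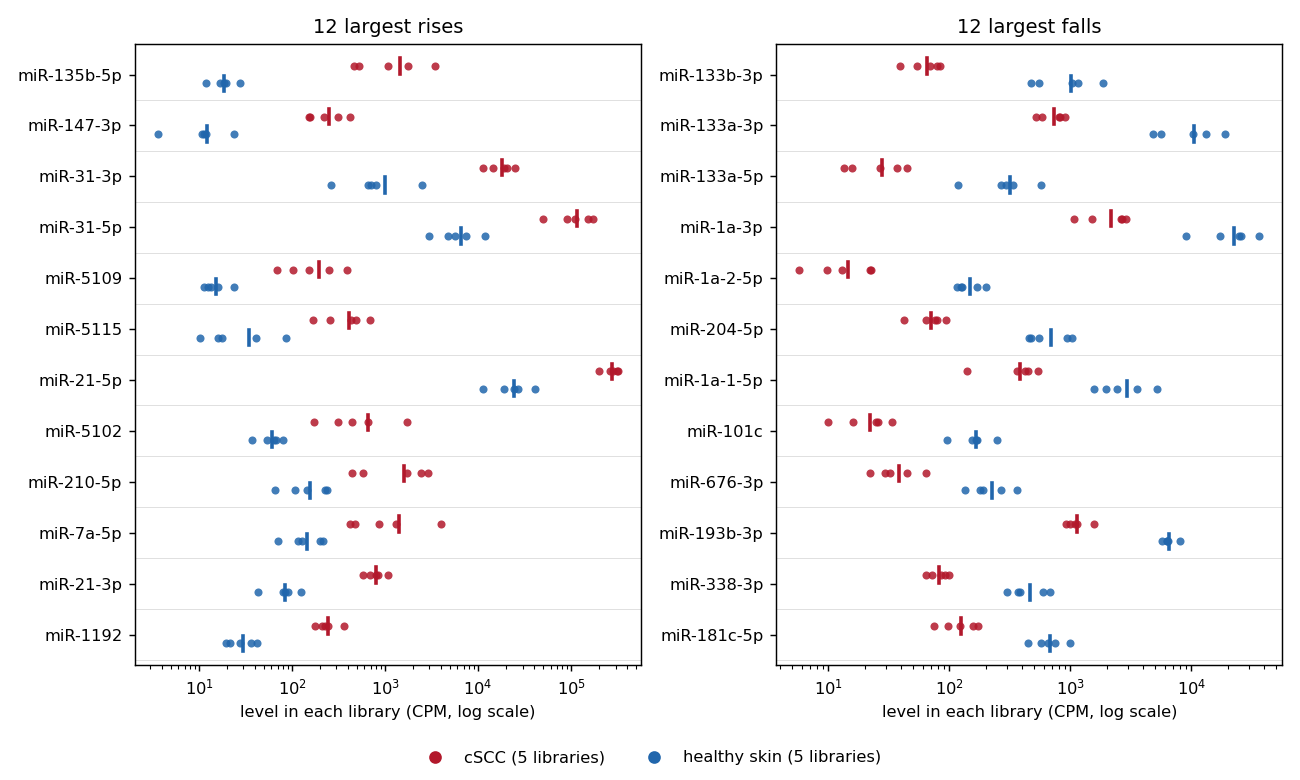
Level of the 12 miRNAs with the largest rises and the 12 with the largest falls in each library (CPM, log scale). Points are libraries, red for cSCC and blue for healthy skin, and vertical bars are group means; in none of the 24 miRNAs do the groups overlap.

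The falls were led by the miRNAs of striated muscle. miR-133b-3p, which lies at chr1:20672914-20672937, had 78.5, 54.4, 69.3, 83.9 and 38.7 CPM in cSCC and 1863, 1035, 547, 1153 and 471 CPM in healthy skin (log2 change -3.96 ± 0.50, edgeR adjusted p = 1.20e-06). miR-1a-3p, the most abundant of them, had 2605, 1502, 2649, 2899 and 1068 CPM in cSCC and 36470, 24800, 17290, 25440 and 8950 CPM in healthy skin (log2 change -3.40 ± 0.52, edgeR adjusted p = 1.28e-05). Among healthy libraries, number 7 was the lowest and number 2 the highest for both, and no carcinoma reached the lowest healthy value. All 7 tested members of the list, of 15 in the table, fell, with a median log2 fold change of -3.40. The others were miR-133a-3p (-3.86), miR-133a-5p (-3.52), miR-1a-2-5p (-3.34), miR-1a-1-5p (-2.94) and miR-206-3p (-2.11), and the groups overlapped for miR-206-3p alone. Summed, the list stood at 2254 to 4565 CPM in cSCC and 16680 to 63760 CPM in healthy skin. Sequences of miR-133a and miR-133b are near-identical, so their reads may have been split between them.

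miR-204-5p, hosted by the Trpm3 gene, had 75.7, 94.1, 78.8, 42.2 and 63.8 CPM in cSCC and 468, 455, 939, 549.7 and 1030 CPM in healthy skin. All carcinomas lay far below the lowest healthy library (log2 change -3.28 ± 0.32, edgeR adjusted p = 1.26e-07). Its seed relative miR-211-5p, a melanocyte miRNA hosted by Trpm1, had 107, 53.8, 48.7, 32.8 and 71.6 CPM in cSCC and 59.6, 182, 953, 80.0 and 142 CPM in healthy skin. Healthy 4 held most of that signal, the groups overlapped, and the fold change of -2.17 (edgeR adjusted p = 0.00911) became -1.01 with an edgeR adjusted p of 0.0906 without it. miR-204 and miR-211 form the melanocyte list, which summed to 76.5 to 187 CPM in cSCC and 529 to 1905 CPM in healthy skin. In the neural and glial list, miR-338-3p, known from oligodendrocytes, fell to 64.1 to 98.2 CPM in cSCC, against 302 to 675 CPM in healthy skin (log2 change -2.50 ± 0.29, edgeR adjusted p = 6.84e-07). The only other tested member of that list, miR-128-3p, had a log2 fold change of -0.59 ± 0.24 (edgeR adjusted p = 0.0409), and its call was lost without cSCC 1, cSCC 2, healthy 2, healthy 3 or healthy 5.

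miR-193b-3p, which targets Mcl1, had the smallest p of all miRNAs tested. At chr16:13449662-13449685, it stood at 1000, 1123, 1564, 1083 and 917 CPM in cSCC and 6312, 6305, 5684, 8086 and 6442 CPM in healthy skin. Both groups were narrow and far apart (log2 change -2.53 ± 0.19, edgeR adjusted p = 7.18e-09). The list of miR-193b, miR-193 and miR-365 was picked by the study itself and is not independent evidence of its direction: of 3 tested members 2 fell, the second being miR-365-3p (log2 change -0.90 ± 0.27, edgeR adjusted p = 0.00675), and miR-193-3p had a value of -0.50 ± 0.29 (edgeR adjusted p = 0.128). miR-26 and miR-101, which restrain the histone methyltransferase Ezh2, fell in all 4 tested members. miR-26a-5p had 4523, 3818, 5470, 4250 and 3593 CPM in cSCC and 12230, 13750, 11580, 15130 and 12750 CPM in healthy skin (log2 change -1.60 ± 0.16, edgeR adjusted p = 1.43e-07). miR-101a-3p had 534, 237, 378, 453 and 610.5 CPM in cSCC and 3605, 2380, 1506, 2170 and 1924 CPM in healthy skin (log2 change -2.39 ± 0.29, edgeR adjusted p = 9.01e-07). Neither overlapped. miR-101c, which lies within the miR-101a sequence, fell by a like amount (log2 change -2.92 ± 0.35, edgeR adjusted p = 7.27e-07), and miR-676-3p fell to 21.9 to 64.5 CPM in cSCC, against 134 to 359 CPM in healthy skin (log2 change -2.55 ± 0.30, edgeR adjusted p = 6.85e-07). The miR-181 family, known for its part in lymphocyte signalling, fell in 4 of 6 tested members, led by miR-181c-5p (log2 change -2.45 ± 0.23, edgeR adjusted p = 9.60e-08), which does not overlap between the groups.

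Keratinocyte miRNAs did not move together. miR-203-3p, a brake on p63 as keratinocytes differentiate, had 19830, 37560, 27910, 15370 and 37530 CPM in cSCC and 52130, 41660, 68900, 77810 and 50560 CPM in healthy skin. The highest carcinoma lay below the lowest healthy library (log2 change -1.07 ± 0.25, edgeR adjusted p = 0.000987). miR-205-5p, which stratified epithelia carry at high levels, had 100400, 73620, 146300, 63520 and 69550 CPM in cSCC and 103000, 76740, 78670, 90750 and 93920 CPM in healthy skin, with overlapping groups and no call (log2 change 0.03 ± 0.19, edgeR adjusted p = 0.888). The sign of this small value turned under several alternatives: it was -0.69 with filterByExpr and -0.98 with no filter (edgeR adjusted p = 0.0210 and 0.00585). The other arms went opposite ways: miR-203-5p fell (log2 change -1.22 ± 0.33, edgeR adjusted p = 0.003), and miR-205-3p rose (log2 change 1.22 ± 0.28, edgeR adjusted p = 0.000994). The call of miR-205-3p was lost with filterByExpr (0.52, edgeR adjusted p = 0.148) and with no filter (0.24, edgeR adjusted p = 0.585). The miR-200 family keeps epithelial cells from a mesenchymal state by restraining Zeb1. It rose in 2 and fell in 1 of 8 tested members, against 36.5% and 25.9% over all miRNAs. The rises were miR-200a-5p (1.08 ± 0.30) and miR-200b-5p (1.02 ± 0.31), and the fall was miR-200a-3p (-0.57 ± 0.21). Both rises were uncalled with the plain miRNA total, filterByExpr, a minimum of 10 CPM and no filter. The call of miR-200b-5p was lost without cSCC 4, and that of miR-200a-3p without cSCC 3, 4 or 6 or healthy 3. The family's median of 0.60 was -0.14 with filterByExpr and -0.42 with no filter.

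Markers of other cell types moved in their own ways, and their part in the results was not tested. Smooth muscle miR-143 and miR-145 fell in all 3 tested members of 4: miR-145-5p had 17130, 17740, 18520, 19320 and 23170 CPM in cSCC and 44150, 42810, 35960, 58870 and 65130 CPM in healthy skin (log2 change -1.36 ± 0.21, edgeR adjusted p = 1.76e-05). miR-143-3p was at -1.59 ± 0.26 on the log2 scale, without overlap, and miR-145-3p at -1.05 ± 0.40, a call that was lost without cSCC 1 or cSCC 2. Endothelial miR-126, hosted by Egfl7, was called in neither arm with the main scaling and filter, at a median of -0.47. Both arms were called lower under each of the other scalings and filters named above, with a median of -1.47 with no filter. miR-126-3p had 6440 to 12800 CPM in cSCC and 9822 to 17970 CPM in healthy skin (log2 change -0.58 ± 0.26, edgeR adjusted p = 0.0603). Of 15 tested fibroblast and mesenchyme miRNAs, 6 fell, 1 rose and 8 did not pass. They included miR-10b-5p, encoded in the Hox D cluster (log2 change -1.85 ± 0.20, edgeR adjusted p = 2.82e-07), and miR-199b-5p (log2 change -1.56 ± 0.23, edgeR adjusted p = 7.10e-06), and the rise was that of miR-214-3p (0.61 ± 0.22). That rise was called under none of the other scalings and filters named above, with values of 0.48 (DESeq2 size factors; edgeR adjusted p = 0.0585) to -0.37 (no filter; edgeR adjusted p = 0.374). The falls numbered 10 with the plain miRNA total, 12 with filterByExpr and 13 with no filter. miR-29a-3p, which lowers collagen messages, was the second most abundant miRNA and showed no call, with 128100, 126600, 163900, 179700 and 83370 CPM in cSCC and 108100, 132000, 105300, 172800 and 96890 CPM in healthy skin (log2 change 0.15 ± 0.23, edgeR adjusted p = 0.599). Its groups overlapped over most of their range, and its sign turned under several alternatives, reaching -0.85 with no filter (edgeR adjusted p = 0.0417).

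Leukocyte miRNAs moved both ways: 3 of 8 tested rose, 3 fell and 2 did not pass, at a median of 0.52 that was -0.17 with filterByExpr and -0.46 with no filter. Over all miRNAs 36.5% were called higher and 25.9% lower. Of the 3 rises, 1 averaged below 50 CPM in healthy skin and entered through other groups. miR-223-3p, a neutrophil and monocyte miRNA, had 56680, 112200, 92720, 53030 and 137400 CPM in cSCC and 10300, 16290, 14800, 17840 and 13510 CPM in healthy skin. It rose without overlap (log2 change 2.64 ± 0.44, edgeR adjusted p = 3.69e-05), as did miR-147-3p above, and miR-142-5p, which leukocytes of all kinds carry, rose with overlap (log2 change 1.32 ± 0.34, edgeR adjusted p = 0.00222), a call that was lost with filterByExpr and with no filter. miR-150-5p, a miRNA of mature lymphocytes, fell to 783, 910.2, 1511, 1856 and 1886 CPM in cSCC, against 2535, 2747, 2306, 5771 and 5224 CPM in healthy skin (log2 change -1.42 ± 0.35, edgeR adjusted p = 0.00183). The other falls were miR-511-3p (-1.16), hosted by the macrophage receptor gene Mrc1, and miR-146a-5p (-1.11), which dampens NF-kB signalling. Summed, the leukocyte list stood at 61470 to 148000 CPM in cSCC and 16250 to 27350 CPM in healthy skin. Most of this sum was miR-223-3p, at 53030 to 137400 CPM in cSCC and 10300 to 17840 CPM in healthy skin. The sum therefore mainly follows that 1 miRNA and does not speak for the list. Of 3 tested erythroid miRNAs only miR-144-5p passed (log2 change 1.80 ± 0.52, edgeR adjusted p = 0.00551), and it did not with filterByExpr (1.09, edgeR adjusted p = 0.0612) or no filter (0.83, edgeR adjusted p = 0.170). miR-451, the most abundant red cell miRNA, had 3695 to 9332 CPM in cSCC and 1761 to 5085 CPM in healthy skin (log2 change 0.73 ± 0.46, edgeR adjusted p = 0.158).

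**Figure D3:**
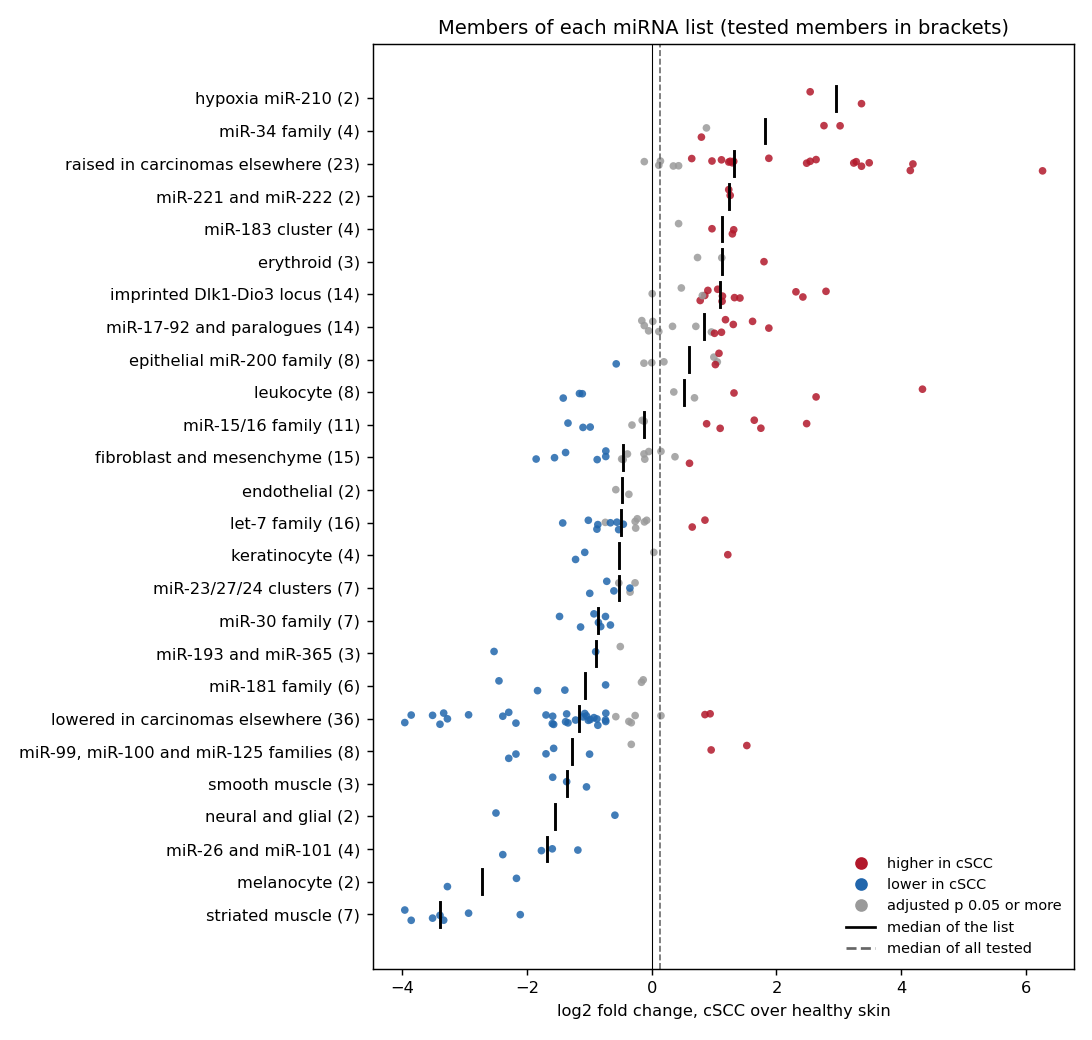
Log2 fold changes, cSCC over healthy skin, of the tested members of each miRNA list, sorted by the list's median (black bar). Red points were higher in cSCC, blue points lower and grey points had an adjusted p of 0.05 or more; the dashed line is the median of all 293 miRNAs, 0.14, and the striated muscle list lies farthest to the left at -3.40.

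The p53-induced miR-34 family rose in 3 of 4 tested members, with a median of 1.82. Of the rises, 1, that of miR-34b-3p, averaged below 50 CPM in healthy skin and entered through other groups. miR-34c-5p had 176, 386, 739.7, 723 and 286 CPM in cSCC and 62.5, 81.6, 62.0, 63.3 and 70.9 CPM in healthy skin (log2 change 2.76 ± 0.36, edgeR adjusted p = 1.82e-06), and its neighbour miR-34b-3p had 68.8 to 261 CPM in cSCC and 8.11 to 35.7 CPM in healthy skin (log2 change 3.02 ± 0.40, edgeR adjusted p = 2.34e-06). The groups did not overlap for either. miR-34a-5p, the most abundant member, rose by less (log2 change 0.80 ± 0.21, edgeR adjusted p = 0.00247). It was not called with the plain total, filterByExpr, 10 CPM or no filter, and its value with no filter was -0.18. The Myc-induced miR-17-92 cluster and its paralogues rose in 6 of 14, fell in 0 and had a median of 0.83. The rises are not far from the 36.5% called higher over all miRNAs. With filterByExpr 2 were higher and 4 lower, and with no filter 0 were higher and 5 lower, at a median of -0.15. All 6 tested members of the cluster on chromosome 14 had a positive value and 5 passed, led by miR-18a-5p (log2 change 1.88 ± 0.55, edgeR adjusted p = 0.0059) and miR-19a-3p (log2 change 1.62 ± 0.42, edgeR adjusted p = 0.00237), each with overlapping groups. None of the 5 tested miRNAs of the miR-106b-25 cluster on chromosome 5 was called, with values of -0.16 to 0.71. miR-18b-5p (log2 change 1.31 ± 0.52, edgeR adjusted p = 0.0352), from the X chromosome, lost its call without cSCC 1, 3 or 4 or healthy 2, 5 or 7. It was also uncalled with the plain miRNA total, library sizes without the 5 most abundant miRNAs, filterByExpr, 10 CPM and no filter.

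miR-221-3p and miR-222-3p, which lower the cell cycle inhibitor p27, both rose and both overlapped between the groups. miR-221-3p had 2442, 3274, 1763, 5289 and 1323 CPM in cSCC and 1041, 1106, 619.9, 1939 and 1185 CPM in healthy skin (log2 change 1.26 ± 0.37, edgeR adjusted p = 0.00578), and miR-222-3p was at 1.23 ± 0.32. Neither was called with filterByExpr or no filter, and miR-221-3p was not called at 10 CPM. The miR-183 cluster, best known from sensory organs, rose in 3 of 4 tested members with overlapping groups. miR-183-5p had 750.5, 932, 1585, 964 and 417 CPM in cSCC and 239, 339, 516, 398 and 377 CPM in healthy skin (log2 change 1.31 ± 0.28, edgeR adjusted p = 0.000438), miR-182-5p was at 0.97 ± 0.23 and miR-183-3p at 1.29 ± 0.40. With filterByExpr or no filter 0 of the 4 were called, and miR-183-3p was also uncalled with the plain total. miR-183-3p averaged below 50 CPM in healthy skin and entered through other groups. The X-linked group of miR-542, miR-351, miR-503 and miR-322 rose in all 5 of its tested members, although miR-322-5p was not called with the plain total, filterByExpr, 10 CPM or no filter. miR-503-5p, which slows the cell cycle by lowering cyclins, had 131, 124.5, 167, 68.1 and 202 CPM in cSCC and 31.5, 25.8, 28.4, 19.0 and 18.9 CPM in healthy skin, without overlap (log2 change 2.48 ± 0.30, edgeR adjusted p = 9.49e-07). At the imprinted Dlk1-Dio3 locus on chromosome 12, whose miRNAs are made from the maternal copy, 14 of 111 listed miRNAs reached the minimum level, and 11 of these rose and 0 fell. The minimum itself favours such a count, because 7 of the 14 averaged below 50 CPM in healthy skin and entered through other groups, and 6 of the 11 rises are among these 7. The other 97 were not tested, and the count says nothing of them. miR-494-3p had 407, 307, 177, 219.5 and 183 CPM in cSCC and 30.3, 42.8, 48.7, 29.3 and 35.4 CPM in healthy skin (log2 change 2.79 ± 0.27, edgeR adjusted p = 1.16e-07). miR-541-5p (2.42 ± 0.25) and miR-409-3p (2.31 ± 0.33) also separated the groups fully, but with filterByExpr 3 of the 14 were called and 1 fell with no filter.

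All 7 tested members of the miR-30 family fell, with a median of -0.86. miR-30b-5p had 1638, 1492, 1374, 1209 and 1435 CPM in cSCC and 4350, 4180, 2832, 3843 and 4722 CPM in healthy skin (log2 change -1.48 ± 0.16, edgeR adjusted p = 3.17e-07), and miR-30c-5p was at -1.14 ± 0.14, both without overlap. The let-7 family, which restrains Hmga2, fell in 8, rose in 2 and did not pass in 6 of 16 tested members, with a median of -0.49. let-7c-5p had 1963, 1029, 1572, 1682 and 1451 CPM in cSCC and 4610, 4244, 2454, 1735 and 2535 CPM in healthy skin, overlapping through healthy 5 (log2 change -1.02 ± 0.27, edgeR adjusted p = 0.00325). The 2 that rose were star arms, let-7b-3p (0.85) and let-7f-1-3p (0.65), and neither was called with the plain miRNA total. With filterByExpr or no filter 13 members fell and 0 rose. In the miR-99, miR-100 and miR-125 families, 5 of 8 fell and 2 rose. miR-99a-5p, which restrains mTOR, had 9412, 8747, 13650, 10750 and 12930 CPM in cSCC and 38690, 41490, 37080, 33970 and 28570 CPM in healthy skin (log2 change -1.70 ± 0.17, edgeR adjusted p = 1.43e-07). miR-125b-2-3p (-2.29 ± 0.33), miR-99a-3p (-2.18 ± 0.23) and miR-100-5p (-1.57 ± 0.17) fell alongside it, whereas both arms of miR-99b rose (miR-99b-3p 1.52 ± 0.24, miR-99b-5p 0.95 ± 0.19), all without overlap. miR-99b-5p lost its call with filterByExpr (0.24, edgeR adjusted p = 0.435), and with no filter it was at -0.05 (edgeR adjusted p = 0.939) and miR-99b-3p at 0.52 (edgeR adjusted p = 0.190). Of the miR-23/27/24 clusters 4 of 7 fell, against 6 with DESeq2 size factors and all 7 under each of the others named above: miR-24-1-5p (-0.99 ± 0.22) and miR-27b-3p (-0.72 ± 0.18) held in every fit that left out 1 library, whereas miR-24-3p (-0.35 ± 0.15), the fifth most abundant miRNA, lost its call without cSCC 1, cSCC 2 or healthy 5, and miR-24-2-5p (-0.61 ± 0.23) without cSCC 2 or healthy 7.

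A pair of wider lists, of miRNAs reported raised or lowered in carcinomas elsewhere, were set beside the 36.5% and 25.9% called over all miRNAs. They were chosen with earlier results of these data known, so their counts are not independent evidence of direction. Of the raised list, 18 of 23 tested members rose and 0 fell, with a median log2 fold change of 1.31. Among the 18 rises, 3 averaged below 50 CPM in healthy skin and entered through other groups. With filterByExpr 11 rose and 1 fell, at a median of 0.63, and with no filter 10 rose and 2 fell, at a median of 0.34. Those that did not pass were miR-146b-5p (0.35), miR-196a-5p (0.14), miR-93-3p (-0.12), miR-93-5p (0.11) and miR-96-5p (0.43). Of the lowered list, 29 of 36 tested members fell, 2 rose and 5 did not pass, with a median of -1.16. Among the 29 falls, 5 averaged below 50 CPM in cSCC and entered through other groups. The rises were let-7b-3p (0.85) and miR-139-5p (0.94), with 0 rises under the plain miRNA total. The muscle, smooth muscle, let-7, miR-99 and miR-100 members counted above make up much of the lowered list, so these counts are not separate from theirs.

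Calls of neighbouring miRNAs were compared by direction. On the mm9 coordinates of the table, 35 groups of 2 or more hairpins lay within 10000 bases of each other, and 25 of them held 2 or more called miRNAs. In 11 of these the called members were all higher, in 10 all lower and in 4 mixed. Over all tested miRNAs 36.5% were called higher and 25.9% lower, so groups with few calls can have 1 direction by chance. Both arms of a hairpin count here as separate called miRNAs. These counts are those of the main scaling and filter. Higher groups included miR-466f, miR-467a and miR-669a (3 of 3) and miR-669c, miR-466h and miR-297a (3 of 3), repeat-rich miRNAs of an intron of Sfmbt2 on chromosome 2 whose near-identical members cannot be counted apart. The largest falls stood in the groups of miR-1a-1 with miR-133a (4 of 4, median -3.46) and of miR-206 with miR-133b (2 of 2, median -3.03). A mixed group was miR-99b, let-7e and miR-125a, with 2 higher and 1 lower. Neighbours that share a transcript are not independent of each other, and which of these groups do so was not examined.

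Grouped by seed, 33 sets of tested miRNAs shared bases 2 to 8. Of 17 sets with 2 or more calls, 6 held calls that were all higher, 7 all lower and 4 both. The set with the seed agcagca, printed above, held both. miR-15b-5p (log2 change 1.10 ± 0.20, edgeR adjusted p = 8.20e-05) and miR-322-5p (log2 change 0.88 ± 0.31, edgeR adjusted p = 0.02) rose, whereas miR-195-5p (log2 change -0.99 ± 0.18, edgeR adjusted p = 0.000113) and miR-497-5p (log2 change -1.34 ± 0.26, edgeR adjusted p = 0.000156) fell. miR-15b-5p ran at 1122 to 1394 CPM in cSCC and 421 to 782 CPM in healthy skin, and miR-497-5p at 251 to 704 CPM in cSCC and 968 to 1605 CPM in healthy skin. The most abundant member, miR-16-5p, was not called (-0.32 ± 0.16), nor was miR-15a-5p (-0.15 ± 0.18), but both were called lower with the plain miRNA total. The 3p arms of the risen members rose as well, with miR-322-3p at 1.75 ± 0.39 and miR-15b-3p at 1.64 ± 0.26. The falls in this set were also called under each of the scalings and filters named above. The rises were called with DESeq2 size factors and with library sizes without the 5 most abundant miRNAs. With the plain miRNA total and at 10 CPM, miR-15b-5p was still called higher and miR-322-5p was not. With filterByExpr miR-15b-5p was at 0.40 (edgeR adjusted p = 0.124) and miR-322-5p at 0.15 (edgeR adjusted p = 0.713). With no filter the 3p arms were uncalled too, miR-322-3p at 0.73 (edgeR adjusted p = 0.147) and miR-15b-3p at 0.66 (edgeR adjusted p = 0.0953). The miR-15/16 list, which holds both arms of this set and miR-503, gave 5 higher and 3 lower of 11, but 3 higher and 6 lower with filterByExpr and 1 higher and 6 lower, at a median of -1.15, with no filter. In this list 1 of the 5 higher averaged below 50 CPM in healthy skin, and 1 of the 3 lower averaged below it in cSCC.

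The 2 arms of a hairpin are made in equal number, and their ratio needs no scaling between libraries. Among 58 hairpins with both arms above the minimum, the log2 ratio of 5p to 3p counts differed in 14 (24.1%) by limma, 6 toward the 5p arm and 8 toward the 3p arm. In 8 of the 58 (13.8%) the groups did not overlap. The arm that was scarcer in healthy skin took a larger share in cSCC in 10 of the 14, and its mean share was larger in 36 of all 58. The scarcer arm was picked from the same healthy libraries, which by itself favours such a gain. These counts therefore cannot show a general shift toward scarcer arms. Whether the smaller depth of the cSCC libraries adds to them was not tested. In 46 of the 58 both arms of a hairpin had fold changes of the same sign.

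The 5p arm of miR-200a gained most. Its log2 ratio was -5.91, -4.75, -4.50, -4.02 and -4.98 in cSCC and -7.19, -6.79, -5.99, -6.15 and -6.40 in healthy skin, without overlap (difference 1.67 ± 0.30, limma adjusted p = 0.000476). let-7b moved as far toward its 3p arm, with 2.87, 1.67, 2.72, 3.04 and 2.81 in cSCC and 5.23, 4.75, 3.79, 3.75 and 3.94 in healthy skin, again without overlap (difference -1.67 ± 0.31, limma adjusted p = 0.000476). miR-205 also moved toward its 3p arm, with means of 8.73 ± 0.38 in cSCC and 9.96 ± 0.37 in healthy skin (SD, n = 5 each), and cSCC 1 and healthy 4 overlapped narrowly (difference -1.23 ± 0.26, limma adjusted p = 0.00195). miR-181c and miR-199b moved toward their 3p arms. miR-199b-5p fell, as above, whereas miR-199b-3p was not called (log2 change -0.46 ± 0.28, edgeR adjusted p = 0.151). The ratio of miR-181c averaged 1.43 ± 0.19 in cSCC and 2.43 ± 0.35 in healthy skin (limma adjusted p = 0.00294), and miR-199b differed by -1.06 ± 0.26, limma adjusted p = 0.00335. Neither overlapped between the groups. miR-199b-3p has the same sequence as miR-199a-3p, so its counts may include reads of miR-199a hairpins. The ratio of miR-199b may therefore not be that of 1 hairpin. miR-574 (1.30 ± 0.29, limma adjusted p = 0.00227), miR-1196 (1.25 ± 0.30, limma adjusted p = 0.00294) and miR-340 (-1.20 ± 0.31, limma adjusted p = 0.0051) overlapped. The other 6 were miR-29a, miR-700, miR-151, let-7g, miR-200b and miR-322, with differences of -0.99 to 1.17, and the call of miR-200b was lost without cSCC 4, cSCC 6 or healthy 3.

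**Figure D4:**
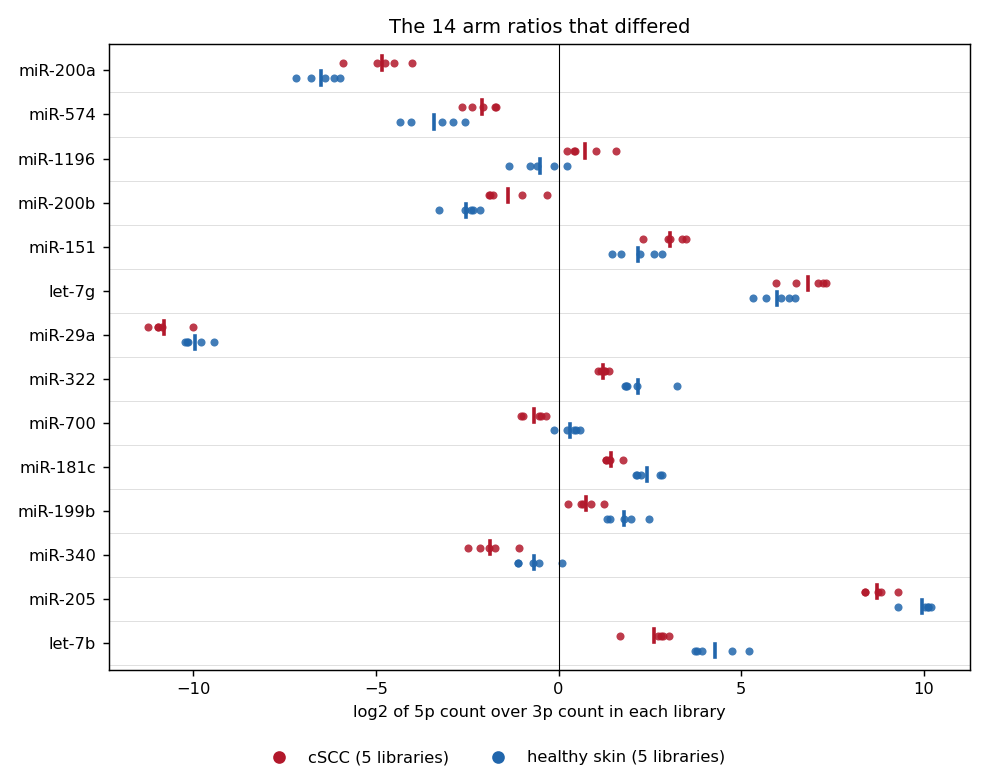
Log2 of the 5p count over the 3p count in each library for the 14 hairpins whose ratio differed, sorted by the difference. Red points are cSCC libraries, blue points healthy libraries and bars group means; miR-200a lies to the right in cSCC and let-7b to the left.

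The other small RNA classes were set against the same libraries. Mature miRNAs made up 77.3, 74.9, 74.2, 77.6 and 79.6% of all counts in cSCC and 73.6, 69.7, 60.7, 66.6 and 67.2% in healthy skin, with 74.2% the lowest carcinoma and 73.6% the highest healthy library (exact permutation test, two-sided, p = 0.00794, the smallest that 5 against 5 allows; adjusted p = 0.0212 over 8 classes). tRNA-derived reads made up 20.1, 21.4, 23.4, 19.3 and 17.8% in cSCC and 23.2, 26.8, 36.3, 30.5 and 29.5% in healthy skin, overlapping at cSCC 3 and healthy 2 (exact permutation p = 0.0159, adjusted 0.0317). These are shares of a whole, so a rise of one class is bound to a fall of others. piRNA entries averaged 0.176 ± 0.0399% in cSCC and 0.297 ± 0.0626% in healthy skin (SD, n = 5 each; exact permutation adjusted p = 0.0212). Entries of the miRNA class without a mature identifier averaged 0.0230% in cSCC and 0.00705% in healthy skin (exact permutation adjusted p = 0.0212). Shares of snoRNA (1.19 ± 0.185% and 1.20 ± 0.131%), rRNA (0.743 ± 0.201% and 0.679 ± 0.0634%), mitochondrial tRNA (0.687 ± 0.273% and 0.952 ± 0.165%) and snRNA (0.0441% and 0.0265%) in cSCC and healthy skin did not pass, at exact permutation adjusted p-values of 0.857, 0.834, 0.148 and 0.0635. Without cSCC 2, the mitochondrial tRNA share passed (difference -0.380, exact permutation adjusted p = 0.0317), and without healthy 7 the snRNA share passed (0.0234, exact permutation adjusted p = 0.0254).

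Single entries of these classes were scaled to the abundant miRNAs, so their CPM are also relative to mature miRNA counts. Of 277 tested entries, 88 (31.8%) differed, 39 higher (14.1%) and 49 lower (17.7%). With TMM factors over the entries themselves the split was 69 higher and 46 lower, and with the total of all counts 30 and 67. tRNA reads, which come from fragments of these adaptors of translation, gave 23 higher and 27 lower of 186. Entries of 1 isotype share sequence, so reads may have been split between them, and sums over an isotype are less exposed to that.

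tRNA isotypes moved in opposite ways. Glycine tRNA entries summed to 72140, 53830, 77590, 62850 and 51730 CPM in cSCC and 100900, 137800, 133300, 131100 and 149000 in healthy skin, a ratio of 0.488 without overlap. Glutamate entries summed to 14300, 16890, 23580, 24530 and 13710 in cSCC and 30030, 35530, 36970, 54100 and 42220 in healthy skin, a ratio of 0.468. Arginine entries had a ratio of 0.328 and serine entries one of 3.63. The arginine sum of 6569 ± 1508 CPM in cSCC and 20010 ± 11080 CPM in healthy skin (SD, n = 5 each) was mostly 1 entry, tRNA-Arg-CCG, which had 5765 ± 1276 CPM in cSCC and 19240 ± 10980 CPM in healthy skin. By entry, 1 of 7 arginine entries was lower and 0 higher, with a median of -0.06. For these 4 of 21 isotypes the exact permutation test gave p = 0.00794, the smallest possible, and an adjusted p of 0.0417; 9 of 21 had an unadjusted p below 0.05. By entry, 12 of 23 glycine and 11 of 18 glutamate entries were lower, with 0 and 1 higher. Under the other scalings 12 entries of each isotype were lower, and with the entries' own factors 1 glycine and 2 glutamate entries were higher. Many of these entries had nearly the same levels, so the tallies are not of independent entries. For example, tRNA-Glu-CTC entries on chromosomes 11 and 3 averaged 1677 and 1680 CPM in cSCC and 3675 and 3692 CPM in healthy skin. Valine gave 7 higher of 18, threonine 4 of 5 and alanine 5 of 19, with 0, 0 and 1 lower. Over all 277 entries tested, 14.1% were higher and 17.7% lower. The sums of these isotypes did not pass. Their ratios were 1.43 for valine, 2.59 for threonine and 0.978 for alanine (exact permutation adjusted p = 0.25, 0.0556 and 0.952). The largest single changes were tRNA-Thr-TGT on chromosome 13 (log2 change 3.77 ± 0.58, edgeR adjusted p = 2.55e-05), tRNA-Ala-TGC (log2 change 3.21 ± 0.44, edgeR adjusted p = 1.84e-05) and tRNA-Lys-TTT (log2 change 3.05 ± 0.47, edgeR adjusted p = 2.55e-05), and on the lower side tRNA-Gly-CCC (log2 change -1.89 ± 0.50, edgeR adjusted p = 0.00641) and tRNA-Trp-CCA (log2 change -1.82 ± 0.46, edgeR adjusted p = 0.00516). tRNA-Arg-CCG (log2 change -1.74 ± 0.54, edgeR adjusted p = 0.0161) lost its call without healthy 7 (-1.41, edgeR adjusted p = 0.0594).

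**Figure D5:**
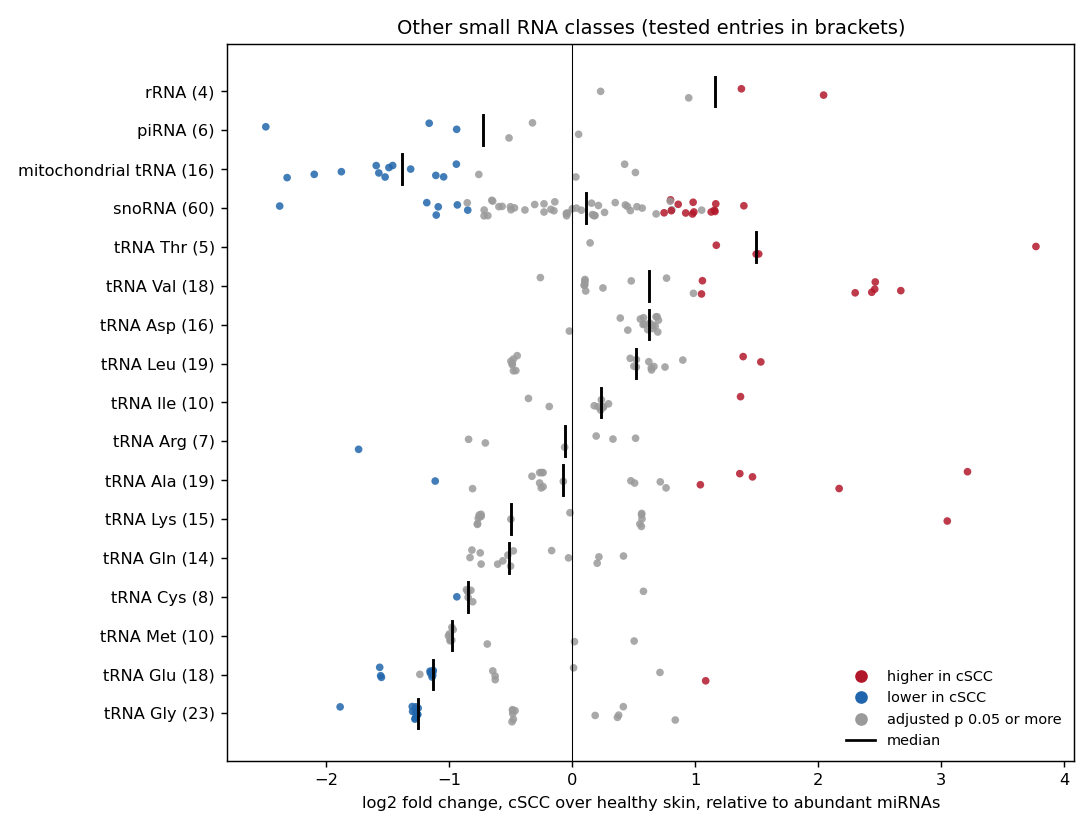
Log2 fold changes, cSCC over healthy skin and relative to abundant miRNAs, of tested entries of the other small RNA classes, with tRNA entries split by isotype (those with 5 or more). Red points were higher in cSCC, blue points lower, grey points had an adjusted p of 0.05 or more and bars are medians; most mitochondrial tRNAs and many glycine and glutamate tRNAs lie left of 0.

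Mitochondrial tRNAs, encoded on the mitochondrial chromosome, gave 12 lower and 0 higher of 16 tested, with a median of -1.39, and 11 and 13 lower under the other 2 scalings. mt-Tk, the lysine tRNA, had 105, 108, 129.5, 86.4 and 112 CPM in cSCC and 582, 417, 390.4, 325 and 605 in healthy skin (log2 change -2.10 ± 0.36, edgeR adjusted p = 0.000112). mt-Tc, the cysteine tRNA (log2 change -2.32 ± 0.50, edgeR adjusted p = 0.00114), and mt-Tw, the tryptophan tRNA (log2 change -1.88 ± 0.40, edgeR adjusted p = 0.000971), were likewise lower in every carcinoma than in any healthy library. By contrast, 2 of 4 rRNA entries rose, both of which overlap on the mitochondrial chromosome and may count the same reads: FR294099 had 178, 582, 421, 234 and 202 CPM in cSCC and 65.3, 50.1, 80.4, 84.1 and 113 CPM in healthy skin (log2 change 2.04 ± 0.39, edgeR adjusted p = 0.000322). snoRNAs, which guide chemical changes of ribosomal RNA, gave 13 higher and 6 lower of 60, but 7 and 14 when scaled to the total of all counts. The largest fall was FR140401 on chromosome 4 (log2 change -2.38 ± 0.36, edgeR adjusted p = 2.55e-05), and the piRNA entry FR139333 (log2 change -2.49 ± 0.37, edgeR adjusted p = 2.55e-05) lies inside it. All 6 tested piRNA entries, 3 of them lower and 0 higher, overlap a tested snoRNA entry. Mir1946a, a miRNA gene entry on chromosome 16, had 116, 205, 100.8, 59.6 and 213 in cSCC and 38.8, 27.2, 46.9, 22.1 and 36.2 in healthy skin (log2 change 2.02 ± 0.46, edgeR adjusted p = 0.002).

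Papillomas came from skin given the same agents, with dose and time not stated in the labels, so lesions of one treatment can be set side by side. It shares its cSCC libraries with the comparison above. In it, 74 of 293 miRNAs differed (25.3%), 38 higher in cSCC (13.0%) and 36 lower (12.3%). miR-135b-5p averaged 1451 ± 1218 CPM in cSCC and 147 ± 119 CPM in papilloma (SD, n = 5 each; log2 change 3.31 ± 0.62, edgeR adjusted p = 0.00081). miR-31-5p averaged 115000 ± 48670 CPM in cSCC and 29140 ± 19410 CPM in papilloma (log2 change 1.98 ± 0.59, edgeR adjusted p = 0.0163). Both were thus higher in the carcinomas than in the benign tumours as well. miR-31-3p (log2 change 0.96 ± 0.48, edgeR adjusted p = 0.173) and miR-21-5p (log2 change 0.82 ± 0.34, edgeR adjusted p = 0.0934) did not pass.

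miR-203-3p fell in cSCC relative to papilloma, with 27640 ± 10100 CPM in cSCC and 76670 ± 9542 CPM in papilloma (SD, n = 5 each; log2 change -1.47 ± 0.25, edgeR adjusted p = 0.000421). miR-204-5p (log2 change -2.16 ± 0.31, edgeR adjusted p = 8.11e-05), miR-193b-3p (log2 change -1.51 ± 0.19, edgeR adjusted p = 2.70e-05) and miR-181c-5p (log2 change -1.64 ± 0.22, edgeR adjusted p = 6.39e-05) fell as well. miR-221-3p rose (log2 change 1.63 ± 0.37, edgeR adjusted p = 0.0031), and so did miR-29a-3p (log2 change 0.96 ± 0.23, edgeR adjusted p = 0.00481), which was not called against healthy skin. Of the muscle miRNAs, miR-1a-3p (log2 change -0.69 ± 0.47, edgeR adjusted p = 0.357) and miR-145-5p (log2 change -0.08 ± 0.21, edgeR adjusted p = 0.882) did not pass, and miR-133a-3p did (log2 change -1.29 ± 0.39, edgeR adjusted p = 0.0164). Whether each difference from papilloma is smaller than that from healthy skin was not tested.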

How the data were processed

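Gel-sized small RNA libraries from total RNA of mouse skin biopsies, made with a NEBNext kit for SOLiD per the labels' protocols, were sequenced, and 10 of 20 libraries enter the comparison. The authors deposited a table of raw counts per feature, with mm9 coordinates (mm9 per the submitters' processing notes). Which aligner and counter were used, and how reads with several matches were handled, is not given in the sources used here, so near-identical miRNAs are uncertain one by one. No entry lacked a name (0 of the table). The smallest total over the libraries of any feature was 21 counts.

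Mature miRNAs with a mean of at least 50 CPM over the 20 libraries were scaled by TMM and tested with edgeR 4.0.16 (quasi-likelihood, 1 term per group, all 20 libraries, Benjamini-Hochberg adjustment, threshold 0.05) in R 4.3.3. Other classes used the same library sizes and factors, so their levels are relative to abundant miRNAs. Arm ratios were log2 of 5p over 3p counts with 0.5 added, tested with limma 3.58.1 (trend). Class shares and isotype sums were tested by exact permutation over libraries. Precision is limited by the number of libraries and by depth, and errors given as ± are standard errors of fold changes or, where marked, SD. For edgeR the standard error was derived as the size of the log2 change divided by the square root of its F statistic. Levels from 1000 up are printed to 4 significant digits.

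Members and the 26 gene lists were chosen with earlier results of these data known. The lists on carcinomas elsewhere rest on general knowledge. Named were the 12 largest changes each way, the 5 most abundant miRNAs, up to 3 per list, the 8 leading arm ratios and 3 entries each way of the other classes; other list members were named after their values were seen. Sequences were to be shown for the 8 largest changes each way and were widened to 12 after the sequence table was seen to lack some; the next fall, miR-101a-3p, was added. Neighbouring hairpins were counted with the arms of 1 precursor (same base name, starts within 100 bases) as 1 hairpin. The fits were tested on simulated data. Alternatives were other scalings and filters, DESeq2 1.42.0, a replicate block, a fit of the groups compared alone and leaving out each library. A minimum of 300 CPM was chosen after seeing the data.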

Additional observations from a re-analysis of the deposited data

Results flagged for a closer look

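In 17 of 246 groups of 5 libraries examined, 1 library stood apart from the other 4 by Dixon's criterion. Chance gives about 1 in 20 groups.

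Among the carcinomas, cSCC 2 had 4008 CPM of miR-7a-5p, with the next library at 1294 CPM. It also had a let-7b log2 arm ratio of 1.67, an rRNA share of 1.09% and 54.9 CPM of FR076063, an entry that overlaps a mitochondrial tRNA. cSCC 6 had 75.4 CPM of miR-145-3p and 5529 CPM of miR-34a-5p. cSCC 3 had 224 CPM of miR-183-3p. cSCC 4 had 70.0, 123 and 177 CPM of FR139333, FR224734 and FR280582.

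In healthy skin, healthy 4 stood apart for 5 values: 2490 CPM of miR-31-3p, 10190 CPM of miR-143-3p, 953 CPM of miR-211-5p, 75.0 CPM of tRNA-Lys-TTT on chromosome 13 and a miR-205 log2 arm ratio of 9.30. Healthy 2 had 479 CPM of miR-99a-3p, and healthy 7 had an snRNA share of 0.0495%.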

How the results depend on the processing

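Among miRNAs, filterByExpr gave 223 higher and 181 lower of 850 tested, a minimum of 10 CPM 178 and 145 of 504, and no filter 152 and 218 of 1137. The minimum of 300 CPM, chosen after seeing the data, gave 55 and 41 of 152. More or fewer miRNAs are tested by construction, and these filters also moved the fold changes by a median of -0.71, -0.38, -0.995 and 0.28 (log2). DESeq2 gave 110 and 76. Arm ratios differed in 36 hairpins at 10 CPM and in 46 with no minimum. Against papilloma, filterByExpr gave 58 higher and DESeq2 40.

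Other classes gave 69 higher with their own TMM factors, 115 with filterByExpr, 162 with no filter, 81 lower when only the groups compared were fitted, and 25 to 43 higher when 1 library was left out (25 without cSCC 4, healthy 2 or healthy 3).

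Of single values, miR-205-5p was -0.0850 with DESeq2 size factors, -0.35 with the total count, -0.11 without the top 5, -0.69 with filterByExpr, -0.36 at 10 CPM, -0.98 with no filter, -0.14 with the groups compared alone and -0.25 to 0.11 when 1 library was left out. miR-29a-3p was -0.23 with the total count, -0.56 with filterByExpr, -0.25 at 10 CPM, -0.85 with no filter, -0.0441 with the groups compared alone and -0.0820 to 0.28 when 1 library was left out. With no filter miR-451 was at -0.27, miR-34a-5p at -0.18 and miR-182-5p at -0.0304. The cause was not tested.

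The snoRNA share differed by -0.0673 to 0.0558 percentage points when 1 library was left out, the rRNA share by -0.0244 to 0.0973, the mitochondrial tRNA share by -0.380 to -0.203 and the snRNA share by 0.0147 to 0.0234. Per 100 mature miRNA reads the rRNA difference was -0.0345.

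Numbers 2, 3 and 4 occur in both groups, and same-numbered libraries did not deviate together (correlations -0.227, 0.0752 and -0.0318). So few libraries cannot show whether the numbers pair the samples, and the labels do not say. With the replicate block there were 90 miRNAs higher and 69 lower, 24 and 27 entries of other classes, 17 arm ratios, and 38 and 36 miRNAs against papilloma.

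Over 115 single items, 2156 alternative values were computed; 2006 kept their direction and call, 102 lost the call, 27 gained one and 21 changed sign. The carcinoma libraries had the smaller total counts, miRNAs below 50 CPM were not compared, and treatment and lesion cannot be told apart against healthy skin.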
